A study of Homo sapiens with 24 samples.

Results

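HT29 is an established human colorectal cancer (CRC) cell line, and 2 of its clones with intact *CTNNB1*, WT 11 and WT 40, were compared here by RNA-seq across all genes and along the chromosomes. *CTNNB1* encodes β-CATENIN. The comparison took the 4 libraries whose titles name these clones, of 24 in the series, with rounds A and B for each clone as its 2 libraries. The other libraries belong to HT29 clones KO 28 and KO 38, in which both *CTNNB1* alleles lost exon 7 after CRISPR/Cas9 editing, and to WT and KO clones of HCT116 and SW480. All cells were grown in the same medium with fetal calf serum and without any treatment. Edited clones were expanded from single sorted cells, and by the study's text its wild-type clones had also met the CRISPR/Cas9 components and been cloned alike, but kept an intact *CTNNB1*. Each WT clone is 1 clone, so a p-value below measures the difference between these clones against the spread between rounds, and not against the spread among HT29 cells. Rounds A and B were separate rounds of RNA-seq on the same clone. In RNA from whole cultures, fewer cells that use a gene and less RNA of it per cell cannot be told apart.

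A clone descends from a single cell and passes on the state of that cell. Many CRC lines, HT29 among them, have an aneuploid karyotype, meaning that chromosomes and chromosome arms are present in unequal copy numbers. HT29 carries inactivating mutations of *APC*, which encodes a scaffold of the complex that marks β-CATENIN for degradation, and β-CATENIN together with TCF/LEF factors then drives WNT target genes. In the healthy intestine this pathway maintains the crypt stem cells, and its targets give way to genes of absorptive and secretory function as cells differentiate.

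The 4 libraries held between 22297049 and 27982576 reads counted on genes, and 1 read was worth between 0.960 and 1.25 units of the deposited value, a read count divided by the size factor of its library. *CTNNB1* stood at 6019 and 6067 in WT 11 and at 5883 and 6113 in WT 40, against values from 256 to 337 in the 4 KO libraries. It did not separate the WT clones, with a log2 difference of 0.01 ± 0.16 (SE) and an adjusted p of 0.97. Epithelial markers were high in both: *EPCAM* ran from 17724 to 30124, and the keratin genes *KRT8* and *KRT18* were higher still in every library. Of 15 markers of colon epithelium, *CDX1*, a homeobox gene of the gut, was listed at 0 in all 4 libraries. *CDX2* reached at most 9.12 and the cadherin *CDH17* at most 2.96, so these markers were at or near 0 in both clones. The other 12 passed the filter, among them *LGALS4* at 12465 and 13219 in WT 11 and at 3057 and 4042 in WT 40. *VIL1* was at 1977 and 2149 against 449 and 764, while *GPA33* was lower, at 17.3 and 13.2 against 0 and 1.25. Among 23 genes of other cell types found in the files, 4 passed the filter and none was called (0 at an unadjusted p under 0.05 in limma, 0 called by edgeR and 0 by DESeq2). These were *COL1A1*, *ACTA2*, *PMEL* and *LYZ*, of which *LYZ*, a lysozyme gene that Paneth cells also use, was at 23376 to 27355 in both clones.

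The clones differed at many genes. Of 15102 genes that reached 10 in 2 or more of the 4 libraries, 1772 (11.7%) were called, meaning a Benjamini-Hochberg adjusted p under 0.05 and a log2 difference over 1 in either direction. They split into 974 genes higher in WT 11 (6.45% of tested genes) and 798 higher in WT 40 (5.28%). The median log2 difference over all tested genes was −0.01, coded throughout as WT 11 minus WT 40, which the size factors set near 0. At 9111 genes (60.3%) the libraries of the clones did not overlap, which is a weaker criterion than the call. Differences over 8-fold were frequent, with 230 called genes higher in WT 11 and 135 higher in WT 40. The same test called 309 genes (1.99%) between the WT clones of HCT116 and 336 (2.06%) between those of SW480.

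On some chromosome arms, most genes differed in the same direction, while others, such as 17q (49.2% higher in WT 11), split about evenly. For each arm, the shift was taken as the median log2 difference of its tested genes minus that of all tested genes, and was computed for rounds A and B apart. The yardstick was the shift between rounds within a clone, whose largest absolute value over all chromosomes and arms was 0.169 (18q in WT 11). Of 41 arms with at least 30 tested genes, 8 had a shift beyond this value in both rounds and in the same direction: 2p, 5p, 5q, 8p, 8q, 9p, 20p and 20q. Chromosomes 2, 5 and 8 as wholes did so too. No p-value is given for these shifts, since genes on an arm are not independent replicates. Only RNA was measured.

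**Figure D1:**
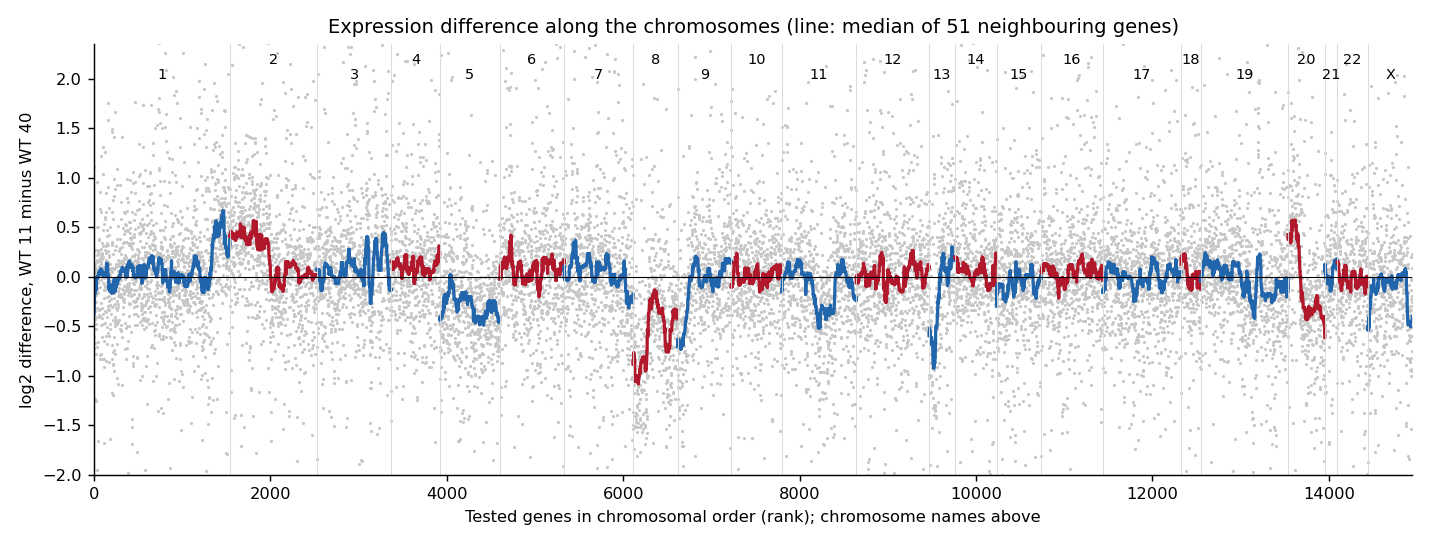
Log2 difference of each tested gene (grey points, WT 11 minus WT 40; points beyond the axis are not shown) in chromosomal order, with the running median of 51 neighbouring genes as a line coloured alternately by chromosome. The line falls to about −1 over 8p, lies above 0 over 2p, 20p and the end of 1q, and below 0 over chromosome 5, 8q, 9p, the start of 13q and 20q.

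The short arm of chromosome 8 had the largest shift. Its 162 tested genes had a shift of −0.96, that is 1.94-fold higher in WT 40, with −0.95 in round A and −0.95 in round B. Between the rounds the arm moved by 0.05 in WT 11 and by 0.04 in WT 40. On 8p, 148 genes (91.4%) were higher in WT 40 and 14 (8.64%) in WT 11, where over all tested genes 49.5% were higher in WT 11. Calls were made for 71 genes in favour of WT 40 (43.8%, against 5.28% of all tested genes). The shift was present at every level of expression: −0.70 over 50 genes with a mean under 100, −0.96 over 84 genes with a mean from 100 to 1000, and −1.01 over 28 genes above that.

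The 4 most highly expressed protein-coding genes of 8p illustrate it. *CTSB*, the gene for the lysosomal protease cathepsin B, was at 2397 and 2360 in WT 11 and at 6633 and 6547 in WT 40. The difference was −1.47 ± 0.16 (log2, SE), with an adjusted p of 3.9e-06. *ADAM9*, a membrane-anchored metalloprotease, was at 2877 and 2323 in WT 11 and at 6652 and 6699 in WT 40, so both genes lay well apart in the clones. With all 8 HT29 libraries in the fit *ADAM9* was not called (adjusted p = 0.22). *GSR*, glutathione reductase, was at 2981 and 3029 in WT 11 and at 4849 and 4106 in WT 40, and did not reach a 2-fold difference. *FDFT1*, which makes squalene, overlapped between the clones, with 4913 and 7902 in WT 11 and 7334 and 10545 in WT 40. The most strongly called listed genes of the arm were *DUSP4*, a phosphatase that turns off MAP kinases, and *FZD3*, a WNT receptor. *DUSP4* stood at 246 and 238 against 1111 and 1238, and *FZD3* at 34.6 and 28.4 against 189 and 125 in WT 11 and WT 40. Calls in favour of WT 11 were made for 4 genes of 8p (2.47%, against 6.45% of all tested genes). They were *ADAM28*, *CLU*, the non-coding *PPP1R3B-DT* and a processed pseudogene, and are named here because they were few, after their values were seen. The pseudogene (ENSG00000253204) was not called by DESeq2 (adjusted p = 0.16) or without round A or B of WT 11 or round A of WT 40. *CLU* was not called without round B of WT 40 (difference 0.88). With all 8 HT29 libraries in the fit, neither the pseudogene nor *CLU* was called.

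The other shifted arms moved by less, and in either direction. Arm 2p was higher in WT 11 by 0.42 (0.42 in round A, 0.44 in round B), with 332 of 407 genes (81.6%) higher in that clone. Arm 20p was higher in WT 11 by 0.44 (0.46 and 0.47), with 114 of 138 genes (82.6%). The opposite arm of the same chromosome, 20q, was higher in WT 40, with a shift of −0.33 (−0.32 and −0.31) over 279 genes, of which 78.5% were higher in WT 40. The arms of chromosome 20 thus moved apart. In contrast, 2q (578 genes) had a shift of 0.04, and the shift of chromosome 2 was carried by its short arm.

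Chromosome 5 was higher in WT 40 on both arms, with a shift of −0.27 over 125 genes of 5p (−0.32 and −0.31) and of −0.29 over 555 genes of 5q (−0.31 and −0.28). On 5p the shift was −0.06 over 43 genes with a mean under 100. It was −0.21 over 30 genes with a mean from 100 to 1000 and −0.35 over 52 genes above that. On 8q the shift was −0.35 over 341 genes (−0.38 and −0.33) and on 9p −0.40 over 170 genes (−0.41 and −0.38). Between 68.8% and 78.3% of the genes on these 4 arms were higher in WT 40. By comparison 9q, the other arm of that chromosome, had a shift of 0.02. Of the shifted arms, 5p and 5q had the smallest shifts. Of the other arms with at least 30 tested genes, 18p had the largest shift, 0.17 (0.13 in round A and 0.23 in round B). Next came 11q with −0.17 (−0.15 and −0.16), and neither was beyond the limit in both rounds.

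**Figure D2:**
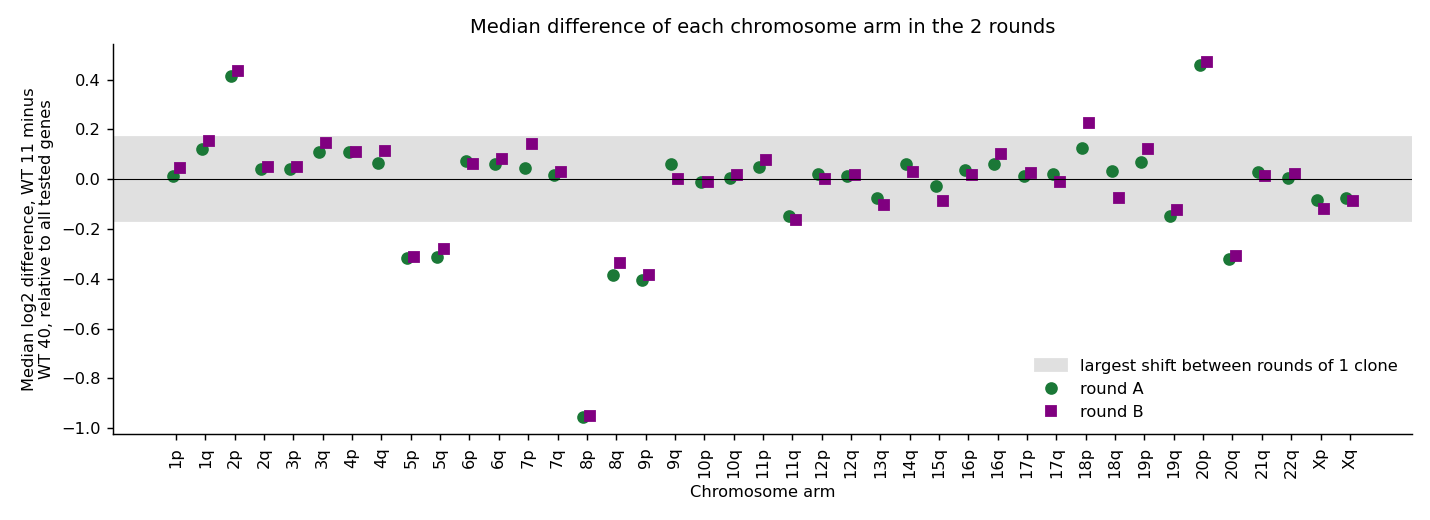
Shift of each chromosome arm with at least 30 tested genes (median log2 difference, WT 11 minus WT 40, relative to all tested genes) in round A (circles) and round B (squares). The grey band spans the largest shift seen between rounds of 1 clone, 0.169 in either direction; 8 arms lie outside it in both rounds, from −0.96 (8p) to 0.44 (20p).

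Single genes on these arms showed the shifts at high expression, mostly without passing the 2-fold limit. *RPS27A* on 2p, a gene for a ribosomal protein fused to ubiquitin, was at 36868 and 47911 in WT 11 and at 23771 and 27484 in WT 40, a difference of 0.72 ± 0.18. *PYGB* on 20p, brain-type glycogen phosphorylase, was at 22535 and 23571 in WT 11 against 10490 and 12612 in WT 40. With a difference of 1.00 it was barely past the limit, and edgeR, DESeq2 and limma without round B of WT 11 or round A of WT 40 did not call it, with differences of 0.87 to 1.00. *CANX* on 5q, for the chaperone calnexin, was at 25674 and 23656 in WT 11 and at 45020 and 41157 in WT 40, a difference of −0.80 ± 0.16. *ERMP1* on 9p, an endoplasmic reticulum peptidase, was at 5538 and 5711 against 9498 and 12045. Libraries of the clones did not overlap at any of these 4 genes, which was also so at 60.3% of all tested genes. *MYC* on 8q, a WNT target, overlapped between the clones, with 6617 and 6181 in WT 11 and 7664 and 6375 in WT 40, a difference of −0.13 ± 0.17 (adjusted p = 0.64).

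An arm did not fix the direction of its genes. The 8 arms held 2177 of the tested genes (14.4%) and 330 of the called genes (18.6%), so that 1442 called genes lay elsewhere. On 5q, *FGFR4*, a fibroblast growth factor receptor, was at 2713 and 2602 in WT 11 and at 248 and 257 in WT 40, 10.5-fold higher in WT 11 against the shift of its arm. *HNF4A* on 20q, a nuclear receptor of the gut and liver epithelium, likewise ran against its arm and is described with the transcription factors.

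Within arms the shifts had edges. In 256 windows of 10 Mb with at least 20 tested genes, the largest shift between rounds of a clone was 0.349, and 31 windows were beyond it in both rounds, 15 higher in WT 11 and 16 higher in WT 40. Of these, 22 lay on the 8 arms and 9 elsewhere. The end of 1q was higher in WT 11, with shifts of 0.54, 0.43 and 0.46 in the windows from 210 to 240 Mb (43, 70 and 41 genes; GRCh37). The start of 13q was higher in WT 40, with −0.63 from 20 to 30 Mb (58 genes) and −0.86 from 30 to 40 Mb (27 genes). Farther along 13q, the window from 100 to 110 Mb was higher in WT 11 by 0.46 (23 genes). The arm as a whole, with a shift of −0.08, did not show these opposite stretches. The remaining windows were 3q from 130 Mb (0.40), 7p from 10 Mb (0.57) and Xq from 150 Mb (−0.45). On 8q the strongest window, from 120 to 130 Mb, had a shift of −0.75 over 45 genes.

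The 8 HT29 libraries showed which clone stood apart on each arm. The level of an arm in a library was the median over its genes of the log2 value minus the gene's mean over the 8 libraries, less the same median over all tested genes. On 8p the libraries of WT 40 were at 0.71 and 0.67, and those of WT 11, KO 28 and KO 38 between −0.27 and −0.19. WT 40 also stood alone on 5q, with 0.27 and 0.23 against −0.12 to −0.04 in the other 6 libraries, and on 20q with 0.23 and 0.25 against −0.10 to −0.04. Likewise it was highest on 5p, with 0.28 and 0.24 against −0.16 to 0.01, and on 8q, with 0.26 and 0.21 against −0.15 to 0.05. On 2p the clones formed pairs across genotypes: WT 11 was at 0.19 and 0.18 and KO 38 at 0.21 and 0.25, while WT 40 was at −0.20 and −0.25 and KO 28 at −0.18 and −0.18. The same pairs appeared on 20p, where WT 11 and KO 38 ran from 0.20 to 0.28 and WT 40 and KO 28 from −0.29 to −0.20. On 9p, WT 40 and KO 28 were at 0.12 to 0.19 and WT 11 and KO 38 at −0.20 to −0.08.

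**Figure D3:**
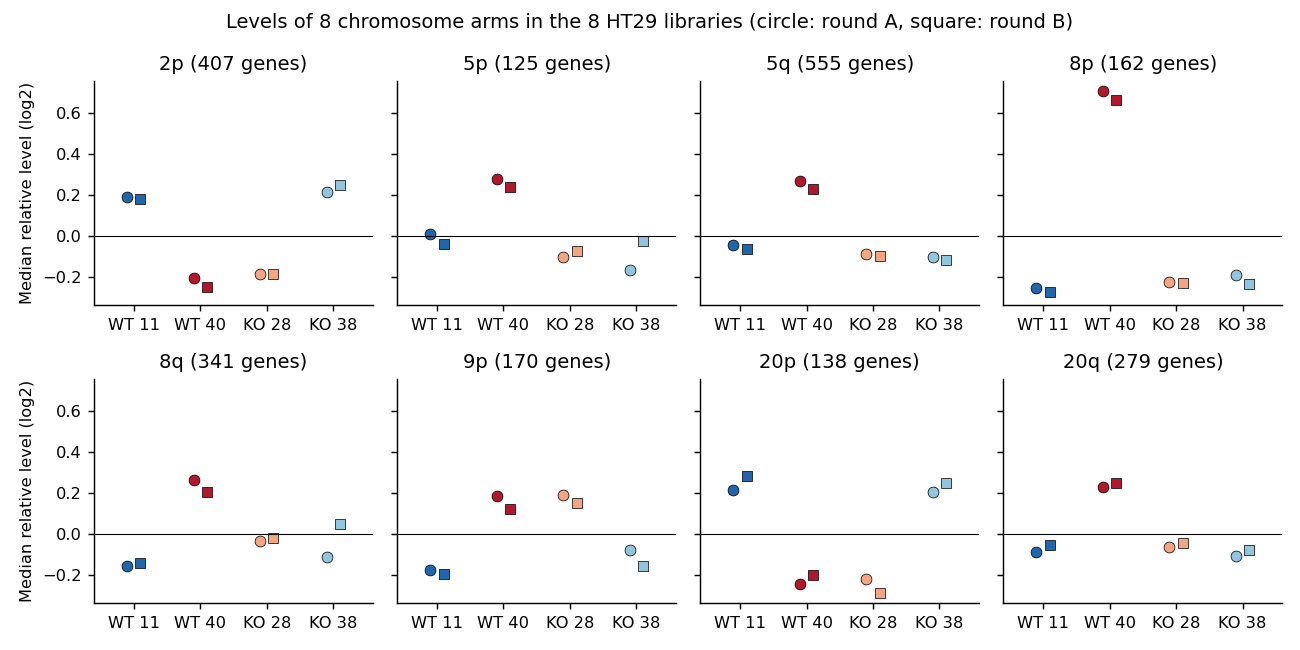
Relative level (median log2, 0 being the mean of the 8 HT29 libraries) of the 8 shifted arms in each HT29 library, round A as circles and round B as squares. WT 40 lies apart from the other 3 clones on 5p, 5q, 8p, 8q and 20q, and WT 11 lies with KO 38 on 2p, 9p and 20p.

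Arm shifts of this kind were not a constant feature of clone pairs. With the same limit, KO 38 and KO 28 differed on 11 arms, with shifts from −0.39 (15q) to 0.51 (20p), and 2p, 9p and 20p were among them. The limit came from the rounds of WT 11 and WT 40 and was not set anew for the other pairs. Rounds of KO 38 could lie farther apart than it, as on 18p with levels of 0.07 and 0.27. The WT clones of SW480 differed on 1 arm, 13q, with a shift of −0.32, and those of HCT116 on none of 41 arms, with shifts from −0.14 to 0.10. The SD of the arm shifts was 0.23 between WT 11 and WT 40, 0.21 between KO 38 and KO 28, 0.05 in HCT116 and 0.06 in SW480.

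Several genes were read in only 1 of the clones. Among protein-coding genes with a mean of at least 200 in the higher clone, the 4 with the largest differences in favour of WT 40 had no read in either library of WT 11. *STS* (ENSG00000101846, X:7065278-7772399, GRCh37), the gene for steroid sulfatase, was at 0 and 0 in WT 11 and at 492 and 471 in WT 40. Taking 3 reads per library as the limit that a count of 0 allows, it was at least 163-fold higher in WT 40. Its neighbour *PUDP* (ENSG00000130021, X:6585906-7066199), a pseudouridine phosphatase gene that starts on the opposite strand within 1 kb of *STS*, was at 0 and 0 against 230 and 209, at least 74.2-fold higher. Reads from the overlap of this pair cannot be told apart, since the library kit does not mark the strand.

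Both genes were present in the KO clones, with *STS* at 1388 and 1483 in KO 28 and at 161 and 98.5 in KO 38. The next tested protein-coding genes on either side had reads in both clones: *PRKX* stood at 693 and 612 against 1229 and 1072, and *PNPLA4* at 109 and 114 against 249 and 214. *DNAJC15* (ENSG00000120675, 13:43597339-43688349), a mitochondrial co-chaperone gene, was at 0 and 0 in WT 11 and at 280 and 304 in WT 40, at least 98.6-fold higher. *CHFR* (ENSG00000072609, 12:133398773-133532890), which encodes a ubiquitin ligase of a mitotic checkpoint, was at 0 and 0 against 199 and 264, at least 78.2-fold higher. The genes next to *CHFR* were expressed in both clones: *GOLGA3* was at 1041 and 1104 in WT 11 and at 909 and 1069 in WT 40, and *ZNF26* at 236 and 254 against 147 and 185. In limma the adjusted p of these 4 genes lay between 1.5e-10 and 2.8e-09, and the fitted differences depend on the pseudocount.

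In the other direction, *FABP1* (ENSG00000163586, 2:88422501-88427581), the liver fatty acid-binding protein of enterocytes, was at 343 and 189 in WT 11 and at 0 and 0 in WT 40, at least 79.0-fold higher in WT 11. *TENM3* (ENSG00000218336, 4:183065140-183724177), a teneurin gene with roles in neuronal wiring, was at 380 and 242 in WT 11 and at 0 and 0 in WT 40, at least 92.6-fold higher. These genes were each present in KO 38 too, with 1590 and 2938 for *FABP1* and 101 and 38.9 for *TENM3*. In KO 28 *FABP1* was at 18.1 and 15.7 and *TENM3* at 0 and 3.91.

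The promoters of these 6 genes are shown because the genes were read in only 1 of the WT clones and have the values just given. They are the 300 bases from 250 before to 50 after the gene start in RefSeq (GRCh38.p14), written 5′ to 3′ on the strand of the gene, with every CG in capitals.
*STS* (chrX:7147040-7147339, + strand): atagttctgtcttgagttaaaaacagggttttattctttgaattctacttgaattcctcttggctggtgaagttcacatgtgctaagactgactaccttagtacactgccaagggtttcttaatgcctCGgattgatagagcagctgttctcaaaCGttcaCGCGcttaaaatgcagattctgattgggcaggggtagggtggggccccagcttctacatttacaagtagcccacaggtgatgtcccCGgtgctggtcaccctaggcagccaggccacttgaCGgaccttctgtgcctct
*PUDP* (chrX:7148104-7148403, − strand): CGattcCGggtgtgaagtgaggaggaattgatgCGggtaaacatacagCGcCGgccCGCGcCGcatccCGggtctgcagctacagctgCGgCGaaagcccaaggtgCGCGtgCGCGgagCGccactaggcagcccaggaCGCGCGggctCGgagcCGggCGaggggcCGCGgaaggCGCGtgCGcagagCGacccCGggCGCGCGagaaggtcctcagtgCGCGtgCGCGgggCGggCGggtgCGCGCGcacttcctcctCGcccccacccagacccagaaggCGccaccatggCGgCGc
*DNAJC15* (chr13:43023336-43023635, + strand): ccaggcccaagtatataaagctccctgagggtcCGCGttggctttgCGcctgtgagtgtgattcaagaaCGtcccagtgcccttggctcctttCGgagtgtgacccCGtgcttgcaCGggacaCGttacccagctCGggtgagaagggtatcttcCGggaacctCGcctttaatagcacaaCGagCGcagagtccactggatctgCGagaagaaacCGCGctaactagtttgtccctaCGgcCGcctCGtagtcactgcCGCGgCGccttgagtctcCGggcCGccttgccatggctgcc
*CHFR* (chr12:132887556-132887855, − strand): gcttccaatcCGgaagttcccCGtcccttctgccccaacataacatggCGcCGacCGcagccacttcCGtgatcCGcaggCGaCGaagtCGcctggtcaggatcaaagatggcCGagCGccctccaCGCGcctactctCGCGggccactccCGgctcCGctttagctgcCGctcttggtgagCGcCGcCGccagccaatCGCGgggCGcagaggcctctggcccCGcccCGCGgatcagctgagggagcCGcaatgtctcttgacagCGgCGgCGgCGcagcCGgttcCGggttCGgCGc
*FABP1* (chr2:88128013-88128312, − strand): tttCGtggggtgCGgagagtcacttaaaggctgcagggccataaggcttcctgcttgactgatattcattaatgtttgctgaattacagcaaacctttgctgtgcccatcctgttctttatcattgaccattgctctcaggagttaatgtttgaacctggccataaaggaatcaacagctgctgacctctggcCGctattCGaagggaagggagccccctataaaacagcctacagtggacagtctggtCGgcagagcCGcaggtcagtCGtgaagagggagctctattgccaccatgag
*TENM3* (chr4:182143713-182144012, + strand): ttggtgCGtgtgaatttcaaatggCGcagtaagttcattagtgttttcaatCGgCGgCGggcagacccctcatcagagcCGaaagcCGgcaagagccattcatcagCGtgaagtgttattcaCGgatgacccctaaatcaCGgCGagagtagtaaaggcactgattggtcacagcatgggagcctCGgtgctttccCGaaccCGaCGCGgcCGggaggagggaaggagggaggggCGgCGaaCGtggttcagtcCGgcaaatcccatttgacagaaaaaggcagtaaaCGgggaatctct

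Of tested protein-coding genes, 9801 had a promoter in this table, and the median number of CG pairs, read on either strand, was 26 per promoter. The windows of *PUDP* and *CHFR* held 45 and 37, more than those of 94.2% and 80.6% of these promoters. *DNAJC15* and *TENM3* were nearer the middle with 24 and 22, whereas *STS* with 6 and *FABP1* with 7 were among the poorest. At least 1 CG was found in 99.4% of the promoters of tested protein-coding genes. Genes at their floor in WT 11 had a median of 24 (13 promoters) and those at their floor in WT 40 a median of 9 (28 promoters). Called protein-coding genes had a median of 21. DNA methylation was not measured, and a count of CG pairs describes only the sequence.

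Taking all genes with at most 3 reads in each library of 1 clone and a mean of at least 50 in the other, 15 genes were at their floor in WT 11 and 41 in WT 40. This rule was chosen after the values were seen. Their means in the expressing clone ran from 53.4 to 482 for the former and from 50.3 to 847 for the latter. Of the 15 genes missing in WT 11, 13 had a mean of at least 10 in KO 28 and 8 in KO 38. Of the 41 missing in WT 40, 17 had such a mean in KO 28 and 31 in KO 38. None of the 41 was present in KO 28 alone and 14 were present in KO 38 alone.

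Some genes with large differences were neighbours, among them *GPC4*, *GPC3* and *HIPK2*, which had more than 3 reads in at least 1 library of WT 40. *CNTLN*, a centrosomal gene, and *SH3GL2*, which encodes an endophilin of synaptic vesicles, follow each other on 9p (9:17134980-17503921 and 9:17579064-17797122) and had no read in WT 11. In WT 40 *CNTLN* was at 83.0 and 66.4 and *SH3GL2* at 40.5 and 66.4. The expressed genes on either side were read in both clones, with *CCDC171* at 55.7 and 28.4 in WT 11 and *RRAGA* at 998 and 1020. *GPC4* and *GPC3*, for the cell surface proteoglycans glypican 4 and 3, adjoin each other on Xq. *GPC4* was at 2286 and 1857 in WT 11 and at 9.88 and 2.51 in WT 40. *GPC3* was at 777 and 575 against 7.90 and 2.51, and the libraries of the clones overlapped at the flanking *MBNL3* and *PHF6*.

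By the GRCh37 gene starts used for positions, which need not be those of RefSeq, *HIPK2* and *TBXAS1* start within 1 kb on opposite strands of 7q. *HIPK2* encodes a nuclear kinase of the stress response and *TBXAS1* thromboxane synthase. *HIPK2* was at 2035 and 1022 in WT 11 and at 10.9 and 8.77 in WT 40. *TBXAS1* was at 742 and 726 against 0.988 and 3.76. Here too the pair moved together, and reads from their overlap cannot be assigned to a strand.

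The remaining genes with the largest differences had a range of known roles. Higher in WT 40 were *PADI2*, an arginine deiminase (21.1 and 12.2 in WT 11, 1181 and 1043 in WT 40), *PLTP*, the phospholipid transfer protein (4.80 and 11.2 against 361 and 430), and *CARD9*, an adaptor of innate immune signalling (41.3 and 45.6 against 1482 and 1735). *TNFRSF1B*, a TNF receptor, was at 1.92 and 0 in WT 11 and at 233 and 179 in WT 40. *ACOXL*, *PLAC8*, *LRRC10B* and *MAGI2* completed the 12, with differences from −5.41 to −5.08. Higher in WT 11 were *KIRREL1*, an adhesion molecule (989 and 706 in WT 11, 1.98 and 1.25 in WT 40), and *KCTD15*, a BTB domain protein (908 and 933 against 10.9 and 2.51). *C2orf72*, *COBL*, *MOB3B* and *BAHCC1* were between 238 and 709 in WT 11 and at 6.92 or less in WT 40.

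Genes of MHC class II antigen loading did not move as a unit. *HLA-DMB* was at 269 and 370 in WT 11 and at 0 and 0 in WT 40, at least 95.0-fold higher, and its partner *HLA-DMA* at 189 and 286 against 18.8 and 25.1. *CD74*, the invariant chain gene, ran the other way with 0.960 and 0 in WT 11 and 229 and 145 in WT 40. The classical gene *HLA-DRA* had at most 1 read in any of the 4 libraries.

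**Figure D4:**
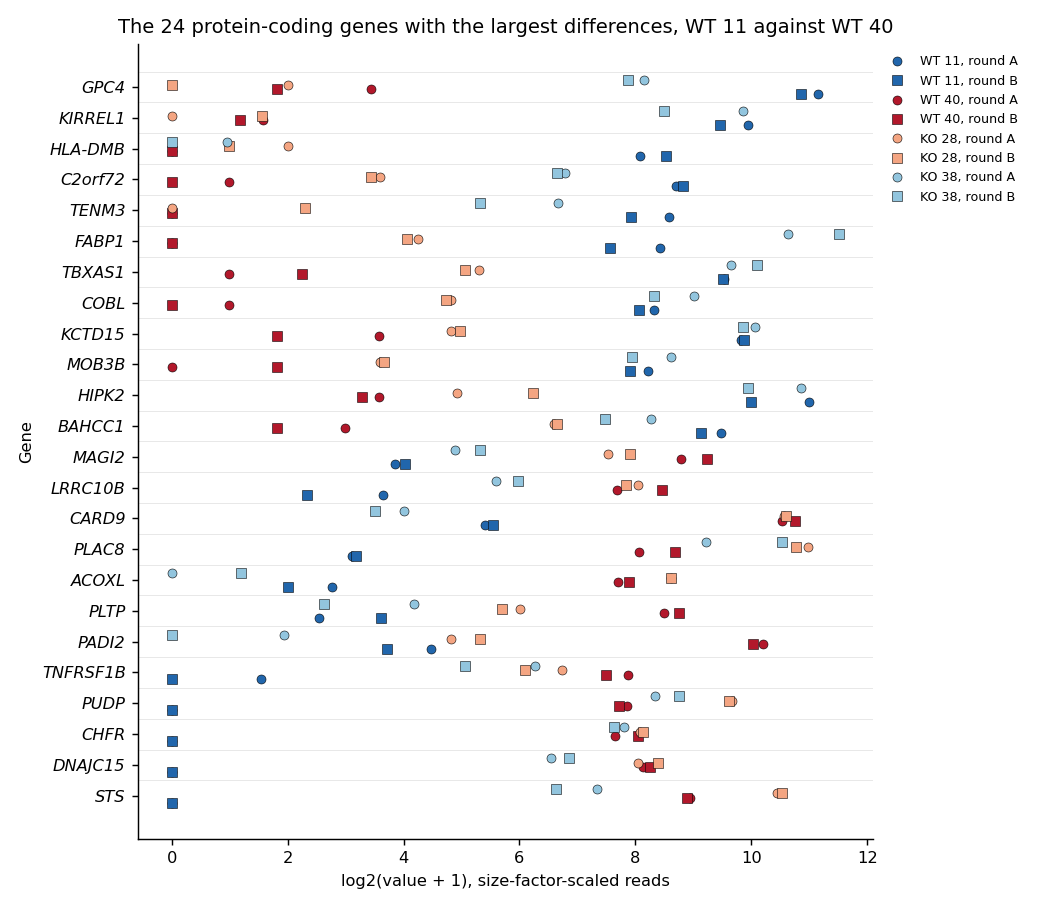
Level (log2 of the value plus 1) of the 12 protein-coding genes with the largest log2 difference in each direction and a mean of at least 200 in the higher clone, in the 8 HT29 libraries by clone and round. WT 11 (dark blue) and WT 40 (dark red) lie apart at every gene, and for most genes higher in WT 11 KO 38 (light blue) lies nearer WT 11 and KO 28 (orange) nearer WT 40.

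To see which functions the differences touched, 29 gene lists were counted. Their 702 tested genes, each counted once, included 99 called higher in WT 11 and 74 higher in WT 40, together 24.6% against 11.7% of all tested genes. The lists favour regulated genes and were drawn up with earlier results of these data known, so this share says little about any one function. Counts below are to be read beside the shares over all tested genes, 11.7% called, 6.45% higher in WT 11 and 5.28% higher in WT 40. Genes with no read in 1 clone lie at the far end of their lists, and setting them to their bound leaves the medians below as they are.

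WNT targets were called in both directions, with 10 of 31 tested genes higher in WT 11 and 3 higher in WT 40 (median 0.20, against −0.01 over all genes). *SP5*, a transcription factor gene that answers directly to WNT, was at 95.1 and 97.3 in WT 11 and at 5.93 and 7.52 in WT 40, 12.7-fold higher (adjusted p = 2.3e-06). *ASCL2*, a master regulator of intestinal stem cells, was at 53.8 and 55.8 in WT 11 and at 11.9 and 6.26 in WT 40, with an adjusted p of 0.073 when all 8 HT29 libraries were in the fit. *LEF1*, itself a member of the TCF/LEF family, was at 11.5 and 12.2 against 0 and 0, at least 3.52-fold higher, with an adjusted p of 0.080 without round B of WT 11. *TERT*, the catalytic subunit of telomerase, was at 48.0 and 23.3 against 7.90 and 5.01, with an adjusted p of 0.079 without round A of WT 11. *NKD1* and *DKK1*, feedback inhibitors of the pathway, were higher in WT 11 by 3.16 and 2.67 on the log2 scale. Other feedback inhibitors, *NKD2* and *NOTUM*, and *SMOC2* made up the 3 genes higher in WT 40, with *NKD2* at 8.64 and 10.1 in WT 11 and at 128 and 158 in WT 40. *NOTUM* was not called without round A of WT 40 (adjusted p = 0.084), nor *SMOC2* without round B of WT 40 (−1.32, adjusted p = 0.25) or with all 8 libraries (adjusted p = 0.13).

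Other common WNT readouts did not separate the clones. *AXIN2*, the target most often used as a reporter, was at 659 and 590 in WT 11 and at 671 and 779 in WT 40, a difference of −0.21 ± 0.19 (adjusted p = 0.47). *LGR5*, the stem cell marker, was at 1151 and 842 against 769 and 946, so the libraries overlapped. *RNF43*, which removes WNT receptors, was at 4537 and 3971 against 3613 and 3753 (difference 0.20, adjusted p = 0.42), and *BMP4* differed by −0.09 (adjusted p = 0.74). *NR2F1* and *ADAM19* differed by 0.38 and −0.45, with adjusted p of 0.16 and 0.14. Of the TCF/LEF factors, *TCF7L2* differed by −0.08 ± 0.20. *TCF7* was at 2222 and 2101 against 3580 and 3614, a difference of −0.74 ± 0.16 with an adjusted p of 0.0036 but under 2-fold, and it lies on 5q. *TCF7L1* was below 11 in all 4 libraries and was not tested.

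Among the core machinery of the pathway, 2 of 24 tested genes were called, 1 in each direction. This share, 8.33%, was near the 11.7% of all tested genes. Of 23 tested ligands and receptors, 10 were called (43.5%), 6 higher in WT 11 and 4 in WT 40. A gene high in either clone alone passes the filter, which can raise this share. *PTK7*, a WNT co-receptor, was at 1695 and 1581 in WT 11 and at 119 and 109 in WT 40, and *LGR4*, a receptor of R-SPONDINS, at 1098 and 945 against 177 and 193. *LGR6*, from the same family as *LGR4*, was at 32.7 and 26.4 against 400 and 693, and the ligand *WNT10A* at 113 and 117 against 838 and 836. Members of 1 receptor family thus differed in opposite directions.

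Enterocyte genes had the largest share called of the lists, 85%, against 50% of goblet cell genes and 25% of enteroendocrine and tuft cell genes. Of 41 enterocyte genes found in the files, 20 were tested. Of these 20, 11 were called higher in WT 11 and 6 higher in WT 40, with a median of 1.84. A gene high in either clone alone passes the filter, which can raise this share. Higher in WT 11 were genes of absorption and digestion: besides *FABP1*, the glucose transporter *SLC5A1* was at 396 and 232 in WT 11 and at 15.8 and 13.8 in WT 40, and *DPP4*, *CA2* and *CA4* differed by 3.56, 3.50 and 3.03. Higher in WT 40 were 4 *CEACAM* genes, *PLAC8* and the keratin *KRT20*. *CEACAM1*, an adhesion molecule, was at 1519 and 1180 against 8048 and 8613, and *KRT20* at 2032 and 1542 against 5791 and 5313. Genes that share this list therefore split between the clones.

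Transcription factors of the gut showed the same split, with 10 of 38 tested genes called higher in WT 11, 3 higher in WT 40 and a median of −0.01. *HNF4A* was at 808 and 812 in WT 11 and at 32.6 and 65.1 in WT 40, 17.2-fold higher in WT 11 (adjusted p = 3.2e-08). *FOXA2*, a pioneer factor of endoderm, was at 111 and 89.2 against 0 and 0, at least 29.8-fold higher. In the other direction *GATA3* was at 2.88 and 6.08 in WT 11 and at 120 and 134 in WT 40. In the KO clones *HNF4A* was high in both, from 670 to 1659, whereas *FOXA2* had no read in KO 28 and stood at 1057 and 927 in KO 38.

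Secretory genes split evenly, with 4 of 16 tested goblet cell genes called in each direction. The mucin *MUC13* was higher in WT 11 (880 and 773 against 65.2 and 50.1), and the trefoil factors *TFF1* and *TFF2* were higher in WT 40 (log2 differences of −1.37 and −2.60). The call of *TFF1* was lost with all 8 libraries (adjusted p = 0.12) and without round B of WT 11, where the difference lay just under the limit (adjusted p = 0.045). Of 21 stem cell genes, 4 were called higher in WT 11, among them *PROM1*, which encodes CD133, at 2988 and 2478 against 287 and 214, and *ID2* at 1798 and 1387 against 218 and 153. *OLFM4* was called as well, but its libraries in WT 11 lay far apart, at 234 and 48.7. In WT 40, 3 genes were higher, among them *CDK6* and *AQP5*.

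The interferon list leaned towards WT 40, with 10 of 39 tested genes higher there, 5 higher in WT 11 and a median of −0.79. *OAS2*, an antiviral sensor of double-stranded RNA, was at 11.5 and 9.12 in WT 11 and at 80.0 and 30.1 in WT 40, and *IFI27* at 171 and 107 against 791 and 356. Their libraries did not overlap but varied more than 2-fold between the rounds of WT 40, and without its round A *OAS2* had an adjusted p of 0.10. *CXCL11* and *USP18* were higher in WT 11, by 3.28 and 2.84. Chemokine and NF-κB genes were called 5 times higher in WT 40 and 2 times in WT 11 among 22 tested. Of these, *CXCL8*, the gene for interleukin 8, was at 145 and 164 in WT 11 and at 1270 and 767 in WT 40.

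Of 42 tested growth factor signalling genes, 10 were called higher in WT 11 and 2 higher in WT 40, while the median was −0.07 and 18 of the 42 had a difference above 0. The receptor *FGFR3* was at 1087 and 920 in WT 11 and at 55.3 and 81.4 in WT 40, 14.7-fold higher, like *FGFR4* above. *FGF9*, a ligand of this family, was at 122 and 79.1 against 3.95 and 8.77. *MET*, the receptor of hepatocyte growth factor, was at 18694 and 13742 against 18780 and 13243 and did not separate the clones. *DUSP4* and *IRS2* were the genes higher in WT 40.

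Few cell cycle genes were called. None of 35 G1/S genes was called, and of 41 G2/M genes only *CENPA*, the centromeric histone on 2p, was called, with a difference of 1.00 and no call at a pseudocount of 5 or without round A of WT 11 (0.86) or of WT 40 (0.88). At an unadjusted p under 0.05, 7 G1/S genes differed in limma, while edgeR called 0 and DESeq2 0 of them. *MKI67*, a marker of cycling cells, was at 13114 and 6218 in WT 11 and at 14779 and 13934 in WT 40. Among CDK inhibitors and p53 targets 6 of 33 were higher in WT 40, with *CDKN2B* on 9p at 146 and 124 against 606 and 566 beside *CDKN1A*. *CDKN1A* differed by −1.04, and by −0.80 without round B of WT 11 or round A of WT 40, which ended the call. With all 8 HT29 libraries in the fit *CDKN1A* was not called either. *CDKN1C* and *GADD45A* were called higher in WT 11, but not with all 8 HT29 libraries in the fit (adjusted p = 0.085 for both), and *GADD45A* differed by 0.88 without round B of WT 40. No ribosomal protein gene was called among 41 tested (median 0.01), with 6 at an unadjusted p under 0.05 in limma, 0 called by edgeR and 0 by DESeq2.

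Among the smaller lists, 5 of 15 imprinted genes were called, all higher in WT 11: *MKRN3*, *GRB10*, *PHLDA2*, *CDKN1C* and *SLC22A18*, the last 3 of which are neighbours on 11p. With all 8 HT29 libraries, *PHLDA2* (adjusted p = 0.063) and *CDKN1C* (adjusted p = 0.085) were not called. *MKRN3* was at 78.7 and 51.7 in WT 11 and at 0.988 and 1.25 in WT 40. Of 35 genes of cholesterol and lipid metabolism, 6 were higher in WT 11, and *PLIN2*, a coat protein of lipid droplets, was higher in WT 40. Of 41 xenobiotic genes, 7 were higher in WT 11, with *AKR1B10*, an aldo-keto reductase, at 12205 and 13475 against 1523 and 2146, and 6 higher in WT 40. The EMT list gave 7 genes in each direction among 30 tested, and *S100A4*, a calcium-binding protein linked to cell motility, was at 2462 and 3082 in WT 11 and at 47044 and 47868 in WT 40, 17.2-fold higher. Keratins and junction genes were called in 4 and 5 of 33 cases, including the claudin *CLDN2* at 19824 and 14350 in WT 11 and 2384 and 2662 in WT 40. HOX genes gave 4 and 1 of 26 (19.2%), WT 11 being named first here and below. NOTCH, Hedgehog, BMP and TGFβ genes gave 3 and 2 of 30 (16.7%), and hypoxia and glycolysis genes 1 and 3 of 39 (10.3%). MHC class I genes gave 1 in each direction of 20 (10%), and enteroendocrine and tuft cell genes 0 and 2 of 8 (25%). Chromosome 19 zinc finger genes gave 1 and 0 of 12 (8.33%). The hypoxia, MHC class I and zinc finger lists were thus near or below the 11.7% of all tested genes. Of the colon epithelium markers, 5 and 2 of 12 were called. None of the 4 tested clustered protocadherins was called (0 at an unadjusted p under 0.05 in limma, 0 by edgeR and 0 by DESeq2), and no cancer-testis gene passed the filter.

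The KO clones, which share no library with the WT clones, gave a second pair of HT29 clones in which to look at the same genes. Of the 974 genes higher in WT 11, 902 were tested between the KO clones, and 672 of them (74.5%) were higher in KO 38 than in KO 28, against 48.8% of all genes tested in both pairs. Of the 798 genes higher in WT 40, 727 were tested there and 578 (79.5%) were higher in KO 28. Between KO 38 and KO 28, 881 genes (5.71%) were called, 449 higher in KO 38 (2.91%) and 432 higher in KO 28 (2.8%), and 2018 (13.1%) without library B of KO 38, in which the 100 genes with most reads took 25.4% of reads against 17.3% to 20.2% in the other 7 HT29 libraries. The called genes of the pairs had 379 in common, 21.4% of those called between the WT clones and 43.0% of those called between the KO clones. Of these, 335 had WT 11 on the side of KO 38 and 44 on the side of KO 28. Without library B of KO 38, the shares on the same side were 72.2% and 75.2%.

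*CARD9* and *ACOXL* are examples of this pairing, as *CARD9* was at 1506 and 1557 in KO 28 and at 15.2 and 10.4 in KO 38, and *ACOXL* at 392 and 392 in KO 28 and at 0 and 1.30 in KO 38. *KIRREL1* paired likewise, with at most 1.96 in KO 28 and 922 and 358 in KO 38. Other genes did not follow the pairs. *CHFR* was read at 198 to 278 in all 4 KO libraries, which leaves WT 11 as the single HT29 clone without it, and *PADI2* was at most 39.1 in both KO clones and high in WT 40 alone. By the distance of mean log2 values, 642 called genes had KO 28 nearer WT 40 and KO 38 nearer WT 11, and 108 had them the other way round. At 611 genes both KO clones were nearer WT 11 and at 411 both were nearer WT 40. Nearer does not mean alike. At 1357 called genes at least 1 KO clone lay outside the range of the WT clones, and at 415 both lay between them. The same split over all tested genes was not counted.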

How the data were processed

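RNA of HT29 clones was prepared as polyadenylated RNA libraries without strand information and sequenced as paired ends. Per the labels, the authors used STAR 2.7.5b for alignment to GRCh37, and featureCounts 2.0.1 for the gene counts. The deposited values have the unit of a normalised signal: gene counts that the authors divided by 1 size factor per library (DESeq2 in Galaxy, 2.11.40.6). Dividing by the step between low values returned whole reads for 100% of values (tolerance 0.01), with 22297049 to 27982576 reads per library. The number of reads limits genes near 0, where 3 reads per library was taken as the floor, and this covers counting error only. Tables of the authors' own comparisons (log2 fold changes and p-values) were not used. Values of XIST and Y-linked genes, and of a few other genes that the rule for named genes would give, are not reported here.

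Genes reaching 10 in 2 or more of the 4 libraries were tested with limma 3.58.1 (trend and robust) on log2(value + 1), in R 4.3.3, with Benjamini-Hochberg adjustment over all genes tested. A fold change on this scale understates the change of low genes. A call needed an adjusted p under 0.05 and an absolute log2 difference over 1. An exact permutation test of 2 against 2 libraries cannot give a p below 0.333, so none was run. edgeR 4.0.16 and DESeq2 1.42.0 on whole reads, other pseudocounts, filters and scaling, a block for the round and leaving out each library were the alternatives. The procedure was tested on simulated data.

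Named genes were the 12 protein-coding genes with the largest called difference in each direction and a mean of at least 200, up to 3 called genes per list and direction with a mean of at least 50, up to 3 others per list with the highest mean, the 4 protein-coding genes with the highest mean per shifted arm, and *CTNNB1*, *AXIN2*, *ASCL2*, *RNF43*, *MYC*, *TERT*, *TCF7*, *TCF7L1*, *TCF7L2*, *LEF1*, *NR2F1*, *ADAM19*, *BMP4* and *LGR5*. Further list members, markers and genes next to these were named after their values were seen. The clones, gene lists and arms were chosen with earlier results of these data known. Coordinates are GRCh37; promoters are RefSeq on GRCh38.p14, matched by symbol for 9801 of 11990 tested protein-coding genes.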

Additional observations from a re-analysis of the deposited data

How the results depend on the processing

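With all 8 HT29 libraries in the fit, 1181 genes were called in place of 1772, and 505 in place of 798 were higher in WT 40. Requiring a value of at least 10 in every library left 647 of 974 genes higher in WT 11, a filter that removes genes near 0 in WT 40. Other settings, with pseudocounts of 0.1 and 5, TMM scaling, edgeR and DESeq2 among them, gave between 1206 and 1955 called genes. Leaving out each library in turn gave 1478 to 1857, the lone library of a clone being assumed to vary like the others.

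The shift of 5p was −0.38 in protein-coding genes alone. That of 8p was −0.80 with genes of at least 1 in at least 1 library and −0.69 without the called genes. Without the called genes the shifts were −0.32 on 9p, 0.37 on 20p and −0.39 on chromosome 8, and with a mean in place of the median 20p had 0.58. Leaving out a library moved chromosome 8 between −0.57 and −0.49. For these shifts the construction of the alternative accounts for fewer or other genes, and beyond that the cause was not tested. All 154 values of the 11 shifted arms and chromosomes under the alternatives kept their sign.

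Of 180 called named genes, 146 were called under every alternative that tested them and 34 were not called under at least 1, 22 of them with all 8 libraries, and none reversed. The labels give each round only a letter, and with 2 pairs the data cannot settle whether the letter pairs the libraries. The round differences of the clones had a correlation of 0.21 over 15102 genes, and the shifts between rounds on 18q (0.17 and 0.10) and 19p (−0.16 and −0.12) had the same sign in both clones. With a block for the round, 1924 genes were called, 1048 higher in WT 11 and 876 higher in WT 40, and no called named gene was lost.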
